A study of Homo sapiens with 6 samples.

Results

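The epidermal differentiation complex is a run of genes on human chromosome 1 that build the outer layer of the skin, and its promoters were followed here through ChIP-seq for NuMA. Members were chosen by position: all promoter windows on chromosome 1 of build hg38 whose start lies between 152000000 and 153700000, with 1 S100 gene left out, which gave 66 windows of the 19957 in the promoter table. They span 1632.7 kb, from 152046908 to 153679636, and each window reaches 1000 bp to either side of an annotated transcription start. The libraries came from MRC5 cells, an established fibroblast line from human lung, all wild type and with no treatment given in the labels: 2 libraries from ChIP with an antibody to NuMA (TDIF in the labels), 2 from ChIP with IgG, and 1 input library, sheared chromatin without a pull-down, for each of these arms. NuMA is a nuclear and spindle protein, IgG is a non-specific antibody that gives the background of a pull-down, and the comparison of the antibodies asks where in the genome NuMA lies. The labels do not say whether the paired libraries came from separate cultures, so p-values may measure technical spread alone. No RNA was measured, so neither the expression of these genes nor the labelled cell type could be checked.

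In the skin, keratinocytes that leave the basal layer stop dividing, fill with keratin and replace their plasma membrane by the cornified envelope, a shell of cross-linked proteins. Most members encode parts of that shell or its regulators. Involucrin and loricrin are scaffold and bulk proteins of the envelope, the small proline-rich (SPRR) proteins bridge them, the late cornified envelope (LCE) proteins are added near the end, and filaggrin and the other S100-fused proteins bundle keratin or line the envelope. The S100 genes encode small calcium-binding proteins, many of which act in inflammation and in epithelia. Fibroblasts do not form a cornified envelope. At the end of the interval lie genes of another kind, such as CHTOP, SNAPIN and ILF2, which are used in most cell types.

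The 66 windows comprised 18 LCE genes, 15 S100 genes, 11 SPRR genes, 7 S100-fused genes, 7 genes grouped as other envelope (IVL, LORICRIN, KPRP, KPLCE, PRR9, LELP1 and SMCP, the last of which encodes a protein of sperm mitochondria and is no envelope gene), 2 peptidoglycan recognition genes, 5 other genes (CRCT1, CHTOP, SNAPIN, ILF2 and NPR1) and 1 window (ENSG00000279850) with no symbol. The table gives Ensembl identifiers only, so symbols were placed by position. A RefSeq start on the same strand lay within 1000 bp of the window centre for 55 members. A further 10 took the nearest free gene beyond that distance and are less certain: S100A11 (10904 bp away), SPRR2E (11659 bp), S100A4, S100A13, PGLYRP3, S100A2, S100A7L2, KPRP, LCE1F and SPRR1A (1149 to 4331 bp). LCE genes, SPRR2 genes and the S100A7 group consist of near copies, so the placement of reads among them is uncertain. The windows of LCE5A, the unnamed member and CRCT1 overlap in a chain, as do those of S100A3 and S100A4.

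Promoter sequences show what kind of DNA these windows hold. The 250 bases before the start are printed 5′ to 3′ from the RefSeq promoter table (GRCh38.p14), which had 52 of the 66 members. In the first sequences, capitals mark the motifs TATAAA (the TATA box) and TGANTCA. The latter takes any base at N, so it includes the core bound by AP-1 factors but is wider than it. These sequences belong to 3 of the members with the strongest differences between the antibodies. They are IVL (chr1:152908296-152908545, plus strand), PRR9 (chr1:153217334-153217583, plus strand) and S100A7A (chr1:153416270-153416519, plus strand).
IVL: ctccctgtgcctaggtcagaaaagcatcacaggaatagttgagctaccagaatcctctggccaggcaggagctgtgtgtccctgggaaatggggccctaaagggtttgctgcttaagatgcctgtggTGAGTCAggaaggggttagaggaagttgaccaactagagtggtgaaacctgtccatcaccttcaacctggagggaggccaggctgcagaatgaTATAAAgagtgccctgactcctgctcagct
PRR9: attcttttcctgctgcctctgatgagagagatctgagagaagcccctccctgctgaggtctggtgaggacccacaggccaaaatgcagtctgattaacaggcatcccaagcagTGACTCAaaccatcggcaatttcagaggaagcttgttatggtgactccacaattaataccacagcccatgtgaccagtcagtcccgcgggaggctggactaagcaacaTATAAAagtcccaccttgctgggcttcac
S100A7A: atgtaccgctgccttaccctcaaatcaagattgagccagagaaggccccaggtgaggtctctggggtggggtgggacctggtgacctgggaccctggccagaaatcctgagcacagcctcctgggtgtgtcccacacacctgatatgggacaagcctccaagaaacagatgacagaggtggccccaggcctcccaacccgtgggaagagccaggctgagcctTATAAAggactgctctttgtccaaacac
The TATAAA match begins 30 bases before the start in IVL, 29 in PRR9 and 28 in S100A7A.

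A second set carries capitals on CpG, the dinucleotide that is common in promoters of broadly used genes. LCE4A (chr1:152707910-152708159, plus strand) and S100A16 (chr1:153613138-153613387, minus strand) each held 1 CpG in these 250 bases. CHTOP (chr1:153633816-153634065, plus strand) and NPR1 (chr1:153678438-153678687, plus strand), from the far end of the interval, held 20 each.
LCE4A: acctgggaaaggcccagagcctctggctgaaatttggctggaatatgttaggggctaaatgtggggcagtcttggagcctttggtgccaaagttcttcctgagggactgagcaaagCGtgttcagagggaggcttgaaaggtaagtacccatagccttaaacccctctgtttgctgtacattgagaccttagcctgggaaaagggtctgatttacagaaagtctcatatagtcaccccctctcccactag
S100A16: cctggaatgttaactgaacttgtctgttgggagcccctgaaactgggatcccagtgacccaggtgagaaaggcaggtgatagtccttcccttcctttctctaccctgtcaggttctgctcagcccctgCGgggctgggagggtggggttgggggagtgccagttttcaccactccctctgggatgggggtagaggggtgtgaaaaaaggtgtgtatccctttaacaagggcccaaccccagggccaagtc
CHTOP: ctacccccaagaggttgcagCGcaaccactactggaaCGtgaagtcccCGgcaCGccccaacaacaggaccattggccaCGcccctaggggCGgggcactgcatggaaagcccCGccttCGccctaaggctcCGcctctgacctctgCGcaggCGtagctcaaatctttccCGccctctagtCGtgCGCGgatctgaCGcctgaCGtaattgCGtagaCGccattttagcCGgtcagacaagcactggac
NPR1: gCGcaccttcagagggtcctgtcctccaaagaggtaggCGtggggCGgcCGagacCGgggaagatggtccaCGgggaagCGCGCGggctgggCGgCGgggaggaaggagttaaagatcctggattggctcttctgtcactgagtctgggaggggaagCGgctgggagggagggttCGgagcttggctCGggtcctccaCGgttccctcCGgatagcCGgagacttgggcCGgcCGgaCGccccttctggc

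Counts over these windows were low and differed most between the antibodies. Libraries held from 366594 (IgG replicate 2) to 1080879 (NuMA replicate 1) promoter counts. The members held 0.103% and 0.140% of these with NuMA, 0.379% and 0.413% with IgG, and 0.262% and 0.246% in the inputs. Their median count was 11.5 and 10 with NuMA, 36 and 22 with IgG, and 25.5 and 26.5 in the inputs. Levels are given below as CPM, counts scaled to a common library total, where 1 count is worth 0.925 and 1.51 with NuMA, 1.62 and 2.73 with IgG, and 1.37 and 1.26 in the inputs. These depths limit what single windows can show.

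Across the interval, NuMA ChIP stood below IgG ChIP at most skin genes. The broadly used genes CHTOP, SNAPIN and ILF2 at its end did not pass the test, with log2 fold changes of -0.34, -0.05 and -1.87. The value of ILF2 lay near the members' median, so not passing does not set ILF2 apart, whereas CHTOP and SNAPIN lay above that median. Of 58 members with enough counts to test, 39 were lower in NuMA ChIP (23.9% of all windows were) and 1, NPR1, was higher (16.8% of all windows were), at an adjusted p under 0.05 in edgeR's quasi-likelihood test. The median log2 fold change of the tested members was -1.94, a level 3.83-fold lower, against -0.04 over all 15727 windows tested. Differences past 4-fold were seen at 27 of the 39 and past 8-fold at 8. Since some members reach the count minimum only through IgG ChIP, the fit with no count filter is given beside it. There 37 of 66 were lower (18% of all windows) and 1 higher (13.8% of all windows). Its median log2 fold change was -1.81 over the members and -0.27 over all 19074 windows. Both NuMA libraries lay below both IgG libraries at 56 of the 66 members (37.8% of all windows) and above them at 1 (26% of all windows). Leaving out 1 library gave fewer lower calls each time, among the members and over all windows alike. The members' median was then -1.62 without NuMA replicate 1, -2.04 without NuMA replicate 2, -1.79 without IgG replicate 1 and -1.82 without IgG replicate 2. The medians of all windows tested were -0.11, -0.25, 0.08 and 0.05 in the same order.

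**Figure D1:**
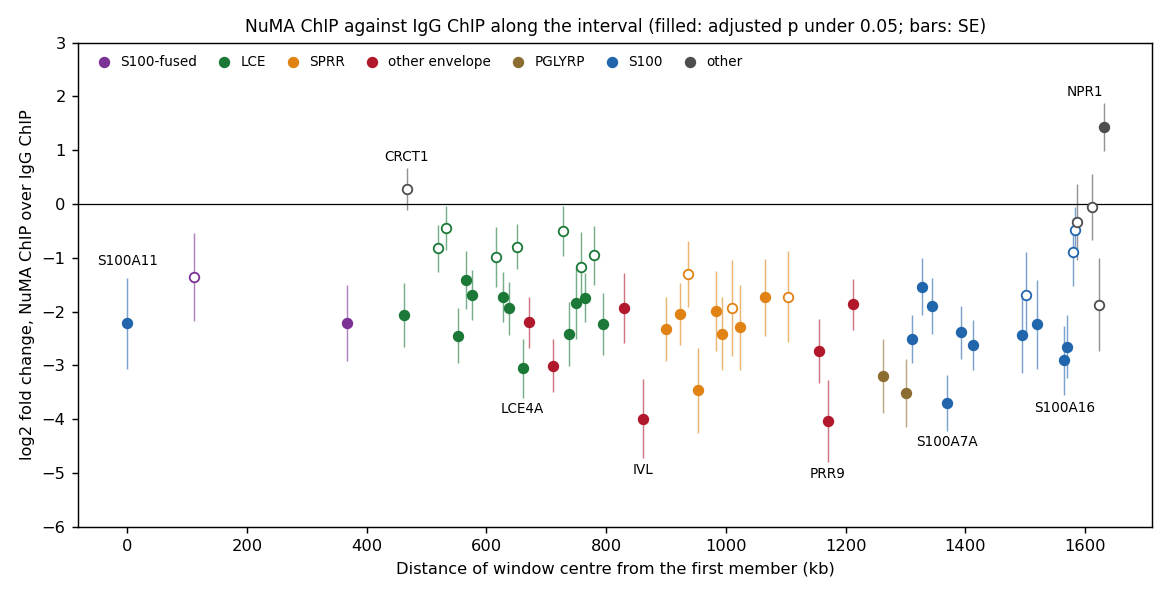
Log2 fold change of NuMA ChIP over IgG ChIP (vertical) for the 58 tested members by distance from the first member in kb (horizontal), coloured by family, with bars of 1 SE and filled points where the adjusted p is under 0.05. Points lie below 0 at 56 of 58 members; CRCT1 and NPR1 lie above it, and of these only NPR1 passed.

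The group with IVL, LORICRIN and SMCP was lower in NuMA ChIP at all 7 members, SMCP included, with a median log2 fold change of -2.73. IVL encodes involucrin, the scaffold on which the envelope is laid down. Its window (chr1:152907544-152909544) had 6.48 and 0 CPM with NuMA, 74.6 and 70.9 with IgG, and 61.7 and 48.0 in the inputs (NuMA arm first, as below). The NuMA libraries lay far below all others, and the count of 0 in NuMA replicate 2 allows up to 4.52 CPM. The log2 fold change was -3.99 ± 0.73 (SE, adjusted p = 2.25e-05), and the value of -8.30 without NuMA replicate 1 is fitted against 0 counts and sets no bound. PRR9, a proline-rich protein of the epidermis, had 3.70 and 3.01 CPM with NuMA, 63.3 and 70.9 with IgG, and 31.5 and 27.8 in the inputs. NuMA was lowest, the inputs lay between, and IgG was highest, with no overlap among them. The log2 fold change over IgG was -4.04 ± 0.76 (SE, adjusted p = 3.59e-05), or 16.4-fold lower, the lowest of the tested members. KPRP, a keratinocyte proline-rich protein, was at -3.002 ± 0.49 (SE, adjusted p = 3.94e-06), from 104 ± 11.4 CPM with IgG to 12.3 ± 8.20 with NuMA (SD, n = 2 each).

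LORICRIN, which encodes the most abundant envelope protein, had the smallest difference of this group. It had 24.1 and 13.5 CPM with NuMA, 101 and 60.0 with IgG, and 41.1 and 24.0 in the inputs. NuMA and input levels overlapped while both IgG libraries stood above them, and the log2 fold change over IgG was -1.86 ± 0.48 (SE, adjusted p = 0.00174). KPLCE, a proline-rich protein of skin once called XP32, was at -2.19 ± 0.47 (SE, adjusted p = 0.000248) and LELP1, a late envelope-like protein, at -2.73 ± 0.60 (SE, adjusted p = 0.000308). For these 3, single libraries decided the call. LORICRIN (-1.23, adjusted p = 0.184) and LELP1 (-2.05, adjusted p = 0.0998) lost theirs without IgG replicate 1. KPLCE lost its call without NuMA replicate 1 (-1.45, adjusted p = 0.0663) and reached -3.32 without NuMA replicate 2.

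The 18 LCE windows, whose genes encode proteins added to the inner face of the envelope in late differentiation, had 11 members lower in NuMA ChIP and none higher, with a median log2 fold change of -1.71. LCE4A had 6.48 and 12.04 CPM with NuMA, 76.3 and 92.7 with IgG, and 26.0 and 27.8 in the inputs. IgG stood above the inputs and NuMA below them, and the log2 fold change was -3.06 ± 0.55 (SE, adjusted p = 2.04e-05), the lowest of the family. LCE3C, with 12.03 and 15.1 CPM against 74.6 and 92.7 with IgG, was at -2.45 ± 0.51 (SE, adjusted p = 0.000155). LCE1E was at -2.42 ± 0.60 (SE, adjusted p = 0.00129), and it stayed past the threshold without any single ChIP library, as did LCE4A and LCE3C. Relative to own inputs none of these 3 passed, with adjusted p = 0.089 for LCE4A, 0.0786 for LCE3C and 0.0706 for LCE1E, and with the flank scaling described at the end LCE3C (-1.13, adjusted p = 0.0992) and LCE1E (-1.10, adjusted p = 0.141) did not pass either.

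In other LCE windows the NuMA libraries differed from each other. LCE2B had 7.40 and 34.6 CPM with NuMA, 82.8 and 81.8 with IgG, and 13.7 and 35.4 in the inputs, so the NuMA and input ranges overlapped and only IgG stood apart. Its log2 fold change over IgG was -1.94 ± 0.49 (SE, adjusted p = 0.00161), at -1.18 (adjusted p = 0.139) without NuMA replicate 1 and -3.11 without NuMA replicate 2. LCE1B (-1.74), LCE2C (-1.73) and LCE3A (-1.69) likewise lost their calls when NuMA replicate 1 was left out, at -1.06, -1.38 and -1.38 with adjusted p = 0.162, 0.0916 and 0.0931. LCE1B was at -2.70 without NuMA replicate 2. Leaving out IgG replicate 1 ended the calls of LCE3A (-1.31, adjusted p = 0.103) and LCE6A (-2.23 in the full fit, -1.85 there, adjusted p = 0.0857). LCE3D had the value nearest 0 in the family, with 33.3 and 63.2 CPM under NuMA, 71.4 and 70.9 under IgG and 50.7 and 46.8 in the inputs. It did not pass, at -0.44 ± 0.41 (SE, adjusted p = 0.383), although both NuMA libraries lay below both IgG libraries.

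**Figure D2:**
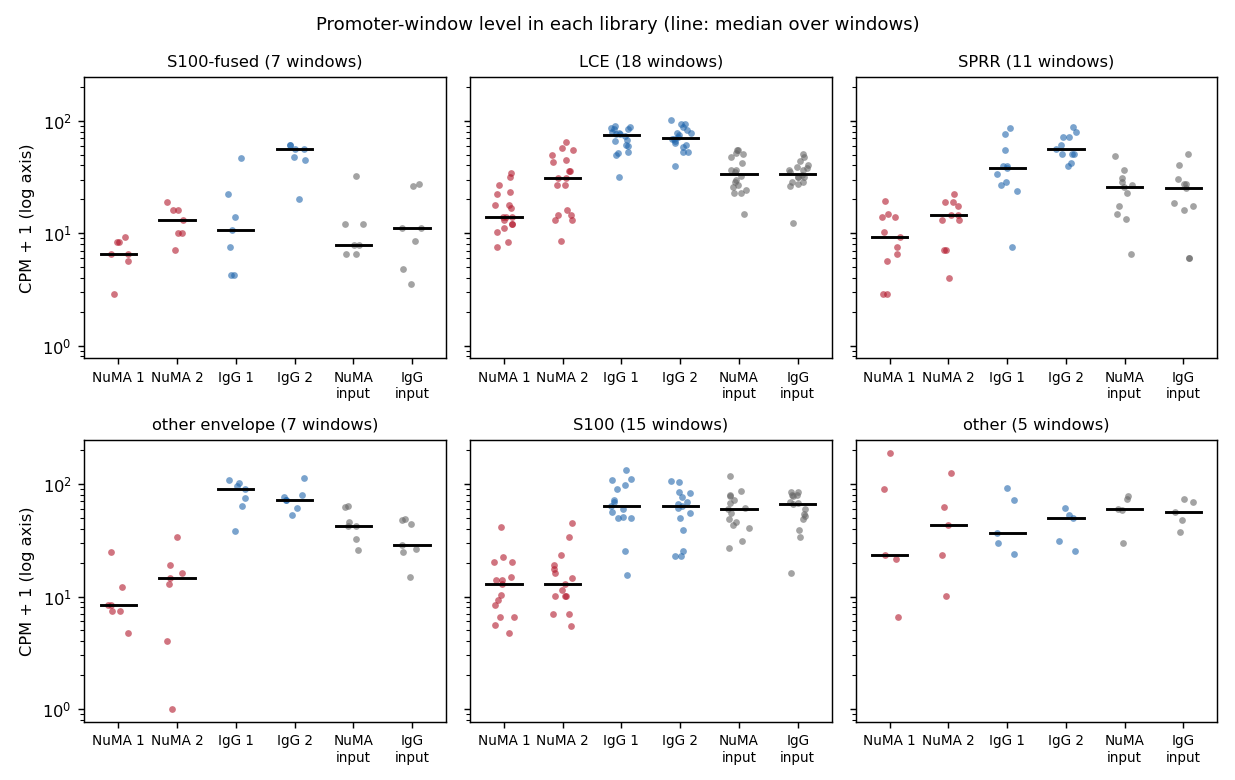
CPM + 1 on a log axis in each of the 6 libraries, 1 panel per gene group; each point is a promoter window and the black line is the median over windows. LCE medians were 12.95 and 30.1 CPM with NuMA, 73.0 and 69.6 with IgG and 32.9 in each input, while the S100-fused genes had 9.74 CPM in IgG replicate 1 and 54.6 in IgG replicate 2.

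SPRR proteins are cross-bridges of the envelope, and several are made in response to barrier stress. Of 10 tested SPRR windows 7 were lower in NuMA ChIP, with a median log2 fold change of -2.02. SPRR3 had 5.55 and 3.01 CPM with NuMA, 38.9 and 79.1 with IgG, and 24.7 and 5.05 in the inputs. The NuMA libraries lay below both IgG libraries, but the IgG input lay between the NuMA libraries. SPRR3 was at -3.46 ± 0.79 (SE, adjusted p = 0.000499), and without IgG replicate 2 it did not pass (-2.83, adjusted p = 0.0753). SPRR5 was at -2.33 ± 0.59 (SE, adjusted p = 0.00157), a call lost without IgG replicate 1 (-1.64, adjusted p = 0.168) or NuMA replicate 1 (-1.96, adjusted p = 0.0554). SPRR1A, the member of the family nearest 0, had 18.5 and 18.1 CPM with NuMA against 53.6 and 49.1 with IgG. The antibodies did not overlap, but it did not pass, at -1.30 ± 0.61 (SE, adjusted p = 0.0746).

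The S100-fused genes are where the IgG libraries parted. Their products, among them filaggrin (FLG), trichohyalin (TCHH) and hornerin (HRNR), carry an S100 domain joined to long repeats and bind keratin or envelope proteins. Across the 7 windows the median level was 9.74 CPM in IgG replicate 1 and 54.6 in IgG replicate 2, beside 5.55 and 12.04 with NuMA and 6.85 and 10.1 in the inputs. IgG replicate 1 thus lay at the level of the inputs and IgG replicate 2 alone above it. FLG, whose product breaks down into the skin's natural moisturising factors, had 2 and 6 counts with NuMA, 4 and 7 with IgG, and 4 and 3 in the inputs, too few to test. TCHHL1, TCHH, HRNR and FLG2 were also left untested, with 2 to 8 counts in IgG replicate 1 and 17 to 22 in IgG replicate 2. CRNN, or cornulin, was lower at -2.21 ± 0.71 (SE, adjusted p = 0.0106). The call was lost without IgG replicate 1 (-2.19, adjusted p = 0.0589), IgG replicate 2 (-1.93, adjusted p = 0.116) or NuMA replicate 1 (-2.04, adjusted p = 0.112). RPTN, or repetin, was at -1.35 ± 0.82 (SE, adjusted p = 0.171). The other untested members were SPRR2E, with 4 counts in IgG replicate 1 and 26 in IgG replicate 2, the unnamed window, with 5 and 22, and S100A4.

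Of the S100 genes 14 of 15 were tested, 11 were lower in NuMA ChIP than in IgG ChIP, and the median log2 fold change was -2.31. S100A7A encodes a relative of psoriasin, an antimicrobial S100 protein of inflamed skin. It had 5.55 and 9.03 CPM with NuMA, 107 and 104 with IgG, and 39.7 and 68.2 in the inputs. The 3 kinds of library did not overlap, and at -3.71 ± 0.52 (SE, adjusted p = 2.85e-07), 13.05-fold lower, it had the smallest adjusted p of all members. S100A7, or psoriasin, was at -2.63 ± 0.47 (SE, adjusted p = 1.46e-05) and S100A7L2, a pseudogene in RefSeq, at -2.39 ± 0.49 (SE, adjusted p = 0.000115). S100A9 and S100A8 encode the subunits of calprotectin, a protein of neutrophils and of stressed keratinocytes. S100A9 had 12.95 and 22.6 CPM with NuMA, 133 and 84.6 with IgG, and 48.0 and 65.7 in the inputs. Again NuMA was lowest and IgG highest without overlap, at -2.51 ± 0.45 (SE, adjusted p = 1.51e-05). S100A8 was at -1.90 ± 0.52 (SE, adjusted p = 0.00329). The call of S100A8 was lost without IgG replicate 2 (-1.65, adjusted p = 0.0641), and that of S100A7L2 without IgG replicate 1 (-1.79, adjusted p = 0.0644).

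Farther along, the S100 windows had higher input levels. S100A16, a broadly expressed S100 protein, had 9.25 and 6.02 CPM with NuMA, 71.4 and 65.5 with IgG, and 118 and 84.7 in the inputs. NuMA was far below both, and IgG lay below the inputs. The log2 fold change over IgG was -2.90 ± 0.64 (SE, adjusted p = 0.000321). S100A14, an epithelial S100 protein, was at -2.65 ± 0.59 (SE, adjusted p = 0.000344), and without IgG replicate 1 it did not pass (-2.05, adjusted p = 0.0872). S100A13 had 40.7 and 43.7 CPM with NuMA against 58.4 and 76.4 with IgG, and did not pass (-0.49 ± 0.43, SE, adjusted p = 0.351). S100A4, a gene well known from fibroblasts, had 6 and 6 counts with NuMA, 9 and 9 with IgG and 19 and 12 in the inputs, and was not tested. S100A11, at the start of the interval, was at -2.22 ± 0.85 (SE, adjusted p = 0.0312), with 8.33 and 4.52 CPM against 24.3 and 49.1. That call ended without any 1 of the 4 ChIP libraries (-1.60 to -2.88, adjusted p = 0.0741 to 0.374).

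PGLYRP3 and PGLYRP4 encode secreted proteins that bind bacterial cell walls, and both were lower in NuMA ChIP. PGLYRP4 had 1.85 and 12.04 CPM with NuMA, 107 and 49.1 with IgG, and 90.4 and 65.7 in the inputs. IgG and input overlapped and NuMA lay below both, at -3.51 ± 0.63 (SE, adjusted p = 1.88e-05). PGLYRP3 was at -3.20 ± 0.69 (SE, adjusted p = 0.000259). The call at PGLYRP4 ended without IgG replicate 1 (-2.56, adjusted p = 0.0694) and that at PGLYRP3 without IgG replicate 2 (-2.31, adjusted p = 0.12).

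The 5 other genes had a median log2 fold change of -0.05, and none passed as lower. NPR1, the receptor for atrial natriuretic peptide, had 187 and 123 CPM with NuMA, 71.4 and 60.0 with IgG, and 58.9 and 68.2 in the inputs. Both NuMA libraries stood above all others, and NPR1 was higher at 1.43 ± 0.45 (SE, adjusted p = 0.00914). The call ended without NuMA replicate 1 (0.96, adjusted p = 0.153) and without IgG replicate 2 (1.38, adjusted p = 0.0825). SNAPIN, a protein of vesicle fusion and lysosome transport, had 22.2 and 42.2 CPM with NuMA, 22.7 and 51.8 with IgG, and 57.6 and 46.8 in the inputs. The antibodies overlapped and SNAPIN did not pass, at -0.05 ± 0.61 (SE, adjusted p = 0.952). CHTOP, a chromatin and mRNA export factor, had 20.4 and 22.6 CPM against 35.7 and 24.6 with IgG and did not pass (-0.34 ± 0.70, SE, adjusted p = 0.711). ILF2, an RNA-binding factor, had 5.55 and 9.03 CPM with NuMA, 29.2 and 30.01 with IgG, and 78.1 and 55.6 in the inputs. The groups did not overlap, with NuMA lowest and the inputs highest, but ILF2 did not pass against IgG (-1.87 ± 0.87, SE, adjusted p = 0.073); with the replicate number as a block it did (-1.88, adjusted p = 0.0466). CRCT1, a cysteine-rich epidermal gene that lies among the LCE genes, overlapped between the antibodies, with 88.8 and 61.7 CPM with NuMA, 90.9 and 49.1 with IgG, and 28.8 and 36.6 in the inputs.

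Measured against input chromatin, S100 genes were lower in NuMA ChIP more often than not, and most LCE and SPRR genes did not pass. NuMA ChIP against input and IgG ChIP against input use the same 2 inputs, and NuMA against IgG uses the same ChIP libraries, so these values are shown side by side and are not independent. NuMA ChIP was lower than input at 19 of 66 members (11.9% of all windows) and higher at 2, NPR1 and CRCT1 (17.2% of all windows), with a median log2 fold change of -0.73. The neighbouring chromosome had similar shares, so this level is not particular to the members. In the 1.7 Mb before the interval 14 of 45 tested windows were lower and 2 higher, and in the 1.7 Mb after it 14 and 2 of 46. The lower members were 10 of 15 S100 genes, 3 of 7 other envelope genes, both PGLYRP genes, ILF2, CHTOP, 1 of 18 LCE genes (LCE3C) and 1 of 11 SPRR genes (SPRR5). Both NuMA libraries were below both inputs at 43 members (43.9% of all windows). Leaving out NuMA replicate 1 or the NuMA input gave fewer calls lower than input, among the members and over all windows alike. The members' median was then -0.93 and -0.71, against -0.04 and 0.02 over all windows tested. Without NuMA replicate 1, NPR1 was at 1.17 and CRCT1 at 1.13, and neither passed.

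IVL (-3.30 ± 0.65, SE, adjusted p = 3.06e-05), S100A16 (-3.17 ± 0.52, SE, adjusted p = 4.01e-07) and PGLYRP4 (-3.20 ± 0.56, SE, adjusted p = 2.51e-06) were lower than input by about as much as they were lower than IgG. LCE genes as a family were not: their median over input was 0.12. LCE2B, for example, was at 0.26 over input (adjusted p = 0.77) and -1.94 over IgG.

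ChIP with IgG gave higher values than input at most skin genes, but none of these differences passed the adjusted test. The median log2 fold change of IgG ChIP over input was 1.09 across the members (2.12-fold) and 0.13 across all 17226 windows tested. With flank scaling these medians were 0.24 and -0.70. Other gene groups had similar values in the main fit, with medians of 1.13 across keratin-associated protein genes and 0.74 across keratin genes. The neighbouring chromosome did not, with 0.03 in the 1.7 Mb before the interval and -0.34 in the 1.7 Mb after it. No member was higher (0.238% of all windows were) and none was lower (0.0639% of all windows were). The same edgeR test at an unadjusted p under 0.05 gave 23 members higher, against 11% of all windows, and 1 lower, for which no share was computed. After adjustment DESeq2 and limma each gave 0 in both directions over all 17226 windows, so their 0 is not particular to the members. The smallest adjusted p was 0.0522, at LCE2B. Both IgG libraries lay above both inputs at 44 of 66 members (23.2% of all windows), among them 18 of 18 LCE genes and 36 of the 43 LCE, SPRR, S100-fused and other envelope genes. They also did so at 32 of 50 keratin genes and 57 of 90 keratin-associated protein genes. What part the IgG level has in the difference between the antibodies was not tested. An input-corrected fit was also run, but the IgG ChIP level still enters it, and each own input is 1 library. Without input correction the median log2 fold change of the 58 tested members was -1.94, and in the input-corrected fit that of all 66 was -1.82. In that fit, which takes each ChIP relative to its own input, 7 members were lower (2.35% of all windows): IVL, PRR9, KPRP, SPRR3, PGLYRP4, S100A7A and S100A16, at -2.72 to -5.48, and NPR1 did not pass (1.84, adjusted p = 0.145). The value of -5.48 is that of SPRR3, whose IgG input held 4 counts.

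**Figure D3:**
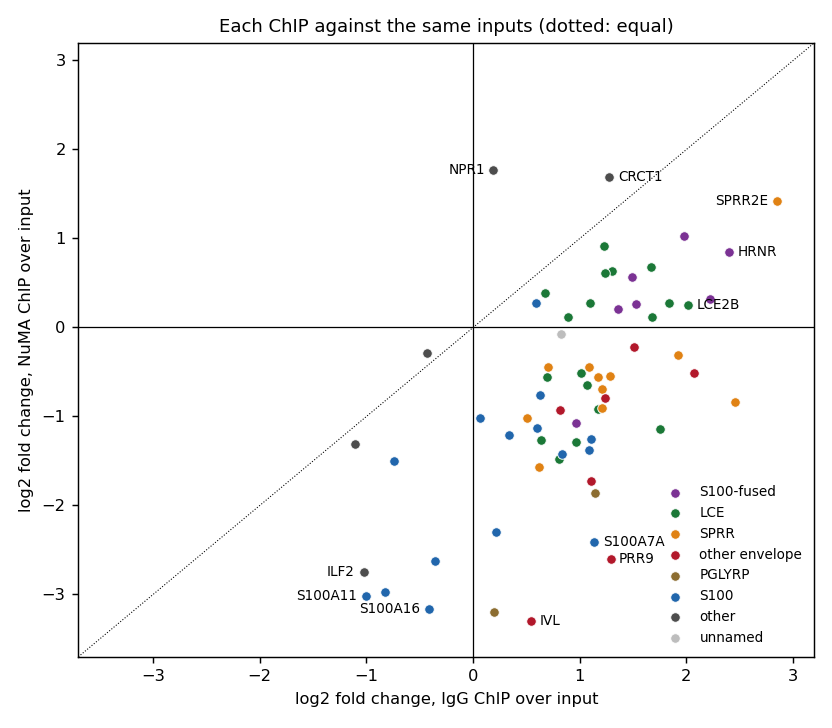
Log2 fold change of NuMA ChIP over input (vertical) against that of IgG ChIP over input (horizontal) for all 66 members, coloured by family; the dotted line marks equal values, and both axes share the inputs. All 18 LCE genes lie right of 0, on both sides of the horizontal line, whereas S100A16, S100A11 and ILF2 lie at the lower left; NPR1 and CRCT1 are the members at or above 1.69 on the vertical axis.

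The S100 genes showed both patterns along the chromosome. In the stretch from S100A9 to S100A7 (6 windows) the median log2 fold change was -2.45 over IgG, -1.32 for NuMA over input and 0.96 for IgG over input. In the stretch from S100A5 to S100A13 (8 windows, 7 tested against IgG) it was -2.24, -1.90 and -0.15. Both IgG libraries were above both inputs at 6 of 6 windows in the first stretch and 0 of 8 in the second. These stretches were drawn after the values were seen and carry no test.

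The members' promoters were poor in CpG. Over the 300 bases from 250 before to 50 after the start, the 52 members with a sequence held a median of 2.5 CpG and 52.5% G + C. The medians were 23 CpG and 63.3% in the 13231 windows of the table with a sequence, and 14 CpG and 58.7% in all 35116 RefSeq promoters. TATAAA, searched on both strands of the 250 bases before the start, was present in 26 of 52 members (50%). It was present in 8.95% of the 13231 windows and 10.7% of all promoters. TGANTCA was present in 17 of 52 members (32.7%), in 4.62% of the windows and in 6.57% of all promoters. The families differed: TATAAA was found in 7 of 8 SPRR, 5 of 7 S100-fused, 8 of 16 LCE and 0 of 4 other genes, and TGANTCA in 6 of 7 S100-fused, 5 of 8 SPRR, 4 of 6 other envelope and 0 of 16 LCE genes. A match describes these letters only and shows no bound factor.

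Other windows were set beside the members by CpG content. With 0 to 2 CpG, the median log2 fold change of NuMA over IgG was -1.83 in 771 other windows, of which 61.7% were lower, and -1.94 in 23 members, of which 73.9% were lower. With 3 to 5 CpG it was -1.79 in 908 other windows (67.4% lower) and -2.19 in 18 members (77.8% lower). With more than 20 CpG it was 0.63 in 5986 other windows (3.12% lower), and the 2 members there were CHTOP and NPR1. The classes of 6 to 10 and 11 to 20 CpG held 2 members each, with medians of -1.66 and -0.96 against -1.20 and -0.16 in other windows. Against input, NuMA ChIP was lower at 3.85% of members and 14.5% of other windows with 0 to 2 CpG, and at 45% of members and 23.6% of other windows with 3 to 5 CpG. For IgG ChIP over input the median was 1.191 in members and 1.135 in other windows with 0 to 2 CpG. With 3 to 5 CpG it was 1.092 and 0.745. Across 47 members the fold change had a Pearson correlation of 0.556 and a Spearman correlation of 0.197 with the CpG count. This is a description of windows that share the same 4 libraries. The part of CpG content in the difference between antibodies was not tested.

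**Figure D4:**
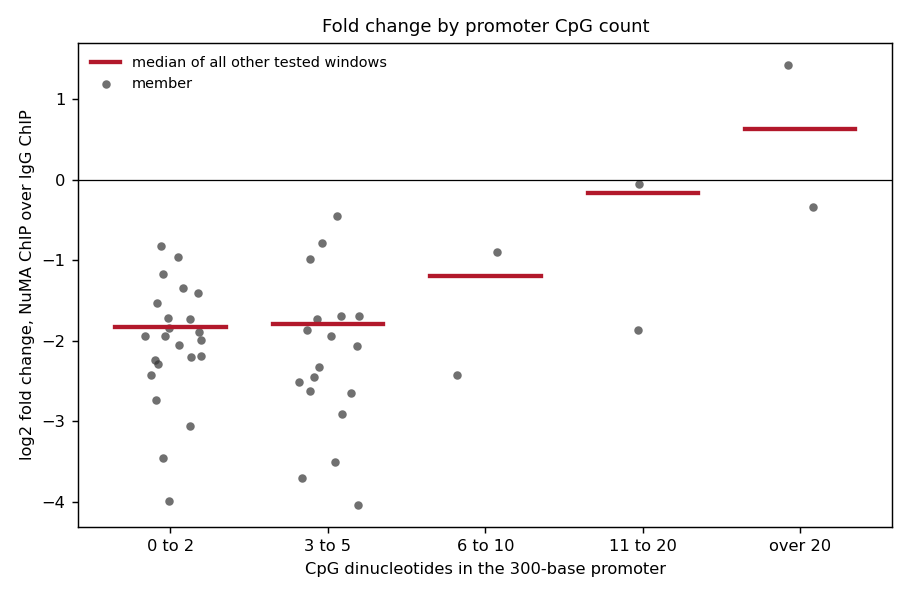
Log2 fold change of NuMA ChIP over IgG ChIP (vertical) for the 47 tested members with a promoter sequence, by CpG count in 300 bases (horizontal classes); points are members and red lines are medians of all other tested windows in the class. The red line runs from -1.83 at 0 to 2 CpG to 0.63 above 20 CpG, and members lie on both sides of it in the lowest classes.

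Beside the neighbouring chromosome and related gene groups, the same counts were as follows. Windows in the 1.7 Mb before the interval were lower at 19 and higher at 2 of 43 tested, with a median log2 fold change of -1.13, and those in the 1.7 Mb after it at 12 and 3 of 41, with a median of -0.81. Keratin genes, which encode the filaments that filaggrin bundles, were lower at 27 of 49 with a median of -1.20. Keratin-associated protein genes, which encode the matrix of hair, were lower at 28 of 80 with a median of -0.88. Neither keratin set had a higher member. The members' median of -1.94 lay below all 4, a difference for which no test was run. For NuMA ChIP over input the medians were -0.725 in the members, -0.733 before the interval and -0.708 after it. They were -0.498 in keratin genes and 0.359 in keratin-associated protein genes.

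All directions are relative to the other promoters. When libraries were scaled on metagene signal far from the start sites in place of promoter counts, the median of all windows rose by 1.30 (log2) and that of the members became -0.62, so the members' median less that of all windows was -1.87, against -1.89 before. With that scaling 11 members were lower (2.73% of all windows) and 3, CRCT1, SNAPIN and NPR1, were higher (48.1% of all windows), and 94.6% of all calls were higher in place of 41.2%.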

How the data were processed

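ChIP-seq libraries of MRC5 cells were compared over promoter windows. The deposited promoter table holds raw counts per window, whole numbers with no normalization, and the authors' metagene tables give summed signal around genes, used only for an alternative scaling. Tools named in the submitters' processing notes, with no role given, are MACS2, featureCounts, bedtools and BWA 0.7.17-r1188, with the build hg38. Whether reads placed at several sites were kept is not given in the sources used here.

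Windows were named from RefSeq starts on the same strand, which named 17004 of 19957 (85.2%) within 1000 bp. Counts of all windows were tested by the quasi-likelihood F-test of edgeR 4.0.16 (R 4.3.3) after TMM scaling and filterByExpr. Its minimum count was set to 10, which it applies as a CPM cutoff, so the counts needed rise with library depth. Benjamini-Hochberg adjustment ran over the whole table, with a threshold of 0.05. NuMA against IgG used the 4 ChIP libraries. Contrasts with the mean input were fitted on all 6 libraries, with each single input assumed to vary like the ChIP groups, and each fit had 2 residual degrees of freedom. Group values are means ± SD of CPM, and a count of 0 is given a floor of 3 counts. Floors cover counting error only, whereas the SE of a log2 fold change comes from the quasi-likelihood fit and includes its estimated spread between libraries. The members, lists and tests were chosen with earlier results of these data known. Named members are the 25 smallest p-values of NuMA against IgG, the highest and lowest of each family, and a set of always named genes; other members (CRCT1 and the untested windows) were named after their values were seen. INTS3 and SLC27A3 lie outside the interval. Alternatives were DESeq2 1.42.0, limma-trend (limma 3.58.1), other scalings and filters, a 1.5-fold threshold, input corrections and each library left out.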

Additional observations from a re-analysis of the deposited data

How the results depend on the processing

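Of the 40 members that passed in NuMA against IgG, 5 (IVL, S100A7A, S100A16, PRR9 and KPRP) passed in every one of the 14 alternatives in which they were tested. DESeq2 kept 32 of the 40, limma-trend 40, scaling on totals 39, the unfiltered fit 38 and the 1.5-fold threshold 36. The count of lower members (39) was 11 at a minimum of 30 counts, where only 14 members were tested, 11 with scaling on flank signal, 7 relative to own inputs, and 21 to 34 with 1 library left out. The count of higher members (1) was 0 with at least 30 counts, 3 with flank scaling, 0 relative to own inputs and 0 to 1 with 1 library left out. At the minimum of 30 counts, 1819 of all 9023 windows tested were lower and 772 higher. A member can reach that minimum through IgG ChIP alone, as KPRP did with 59 and 41 counts, against 7 and 12 with NuMA. NPR1 reached it through NuMA ChIP, with 202 and 82 counts against 44 and 22 with IgG. The 11 of 14 thus depends on which windows the filter keeps and is no independent check. With flank scaling, which moves the median of all windows up by 1.30, 12 tested members changed sign, among them SNAPIN (1.32, adjusted p = 0.0491), CHTOP (0.92, adjusted p = 0.239) and LCE3D (0.85, adjusted p = 0.189). For NuMA against input, the lower members (19) were 10 with DESeq2, 12 above 1.5-fold, 10 with flank scaling, 12 against the own input only and 11 to 17 with 1 library left out. The higher members (2) were 1 with DESeq2, 1 without overlapping windows, which removes CRCT1, and 0 to 2 with 1 library left out. For IgG against input, where none passed, 3 were lower with flank scaling (S100A11, CHTOP and ILF2) and 0 to 1 higher with 1 library left out (SPRR2E without IgG replicate 1). Beyond the construction of these alternatives, the cause was not tested.

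Replicate numbers are shared between the antibodies, but no label says that they mark a shared culture or day. Deviations of same-numbered libraries correlated at 0.182. With the number as a replicate block 44 members were lower and 1 higher in NuMA against IgG, 14 lower in NuMA against input, and 2 higher in IgG against input (LELP1 and LORICRIN). Over all windows the block also gave more calls in NuMA against IgG, 4162 lower and 3445 higher in place of 3761 and 2640, and 265 in place of 41 higher in IgG against input. In NuMA against input it gave 1941 lower and 3472 higher over all windows, in place of 2045 and 2960. Low depth limits single windows most: 29 and 32 members had under 10 counts in NuMA replicates 1 and 2.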
